A study of Drosophila melanogaster with 4 samples.

Results

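The Wnt genes wg (wingless), Wnt4, Wnt6 and Wnt10 lie side by side on the left arm of chromosome 2 (2L) of Drosophila melanogaster. The regions described here are the H3K4me1-enriched regions that overlap, by at least 1 bp, the stretch from the first base of Wnt4 to the last base of Wnt10 plus 20 kb on each side. This stretch runs over chr2L:7235419-7397528 and measures 162 kb. It held 10 of the 7601 regions listed for replicate 1, 10 of the 7401 listed for replicate 2, and 12 of the 8219 in the joint list, the authors' own list of both libraries together.

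All libraries came from whole, wild-type embryos of the Oregon-R strain (Oregon-R-modENCODE), collected 14 to 16 h after egg laying and fixed with formaldehyde. There were 2 ChIP libraries, made with the antibody ab8895 in a batch named new lot 2, and 2 input libraries of genomic DNA, which were not analysed here. The samples given here hold no mutant, treated or differently aged group, so the comparisons below run along the chromosome and between the replicate libraries. The labels do not say whether the replicates came from separate embryo collections, so the SD between them (n = 2) may be technical. Where a whole embryo is profiled, a mark on few cells and a weaker mark on many cells cannot be told apart.

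Mono-methylation of histone H3 at lysine 4 (H3K4me1) marks enhancers and the sequence flanking active promoters. Wnt proteins are secreted, lipid-modified ligands that bind Frizzled receptors and, through Armadillo (the fly beta-catenin), switch on target genes. wg is the fly counterpart of vertebrate WNT1 and a segment polarity gene: its product keeps the boundaries of embryonic segments and later patterns the gut, the nervous system and the imaginal discs. wg, Wnt6 and Wnt10 form a gene cluster that is kept together in many animals, with Wnt4 beside it in flies.

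Gene spans were taken from RefSeq release 6, on which Wnt4 lies at chr2L:7255419-7277171, wg at chr2L:7307159-7316265, Wnt6 at chr2L:7333714-7352542 and Wnt10 at chr2L:7363379-7377528. The region lists are on FlyBase release 5, and positions on 2L were taken to be the same in both releases. On 2L, 45% of the ends of protein-coding genes lay inside a joint region, against 31.5% of all bases. On 3R, whose positions were shifted between the releases, these shares were 33.5% and 35.3%. The gene table gives neither strand nor exons, so genes are described by their lower- and upper-coordinate ends, and introns, exons and UTRs were not separated.

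The H3K4me1 regions were concentrated around Wnt4 and wg and thinned out towards Wnt6 and Wnt10. From the first base of Wnt4 to the last base of wg, a length of 60.8 kb, 70.6% of the sequence was inside a region in replicate 1, 61.7% in replicate 2 and 77.2% in the joint list. From there to the last base of Wnt10, a length of 61.3 kb, the shares were 19.4%, 6.26% and 19.9%. The means of the replicates were 66.2% ± 6.28 and 12.8% ± 9.3 (SD, n = 2 each), and within each library the first part was above the second, by 51.2 percentage points in replicate 1 and 55.5 in replicate 2. The point at which the cluster was divided was chosen after its values were seen. With 2 libraries an exact sign-flip permutation test of such differences cannot give p below 0.5, so no test is reported here or below.

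**Figure D1:**
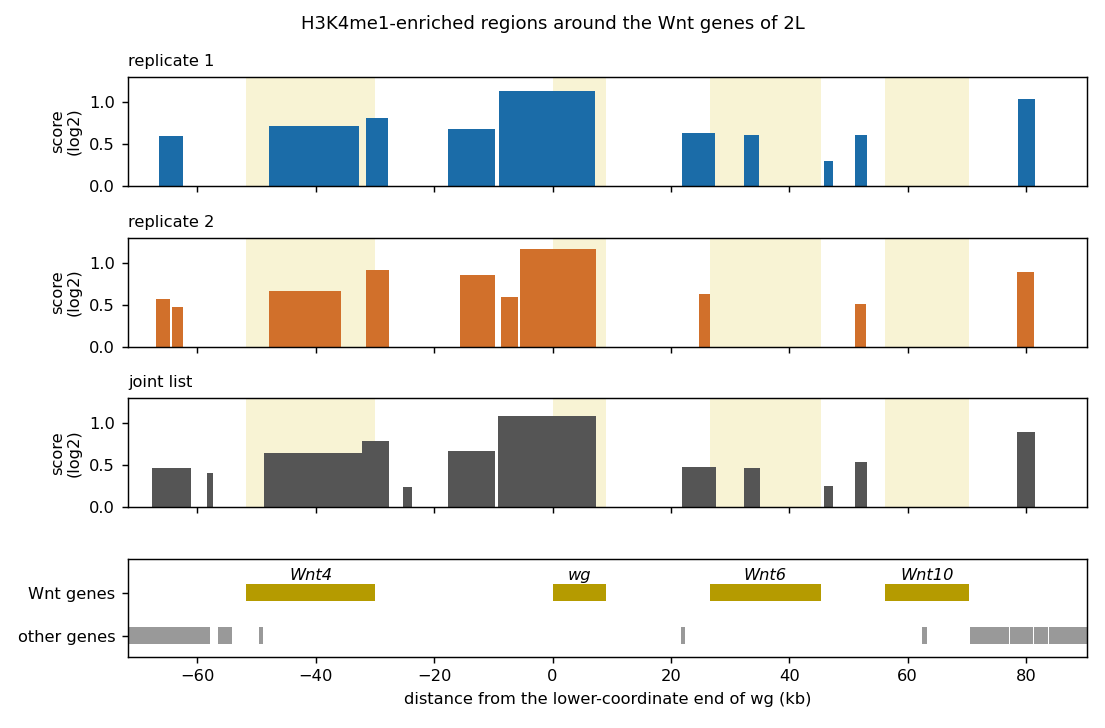
Regions of replicate 1, replicate 2 and the joint list around the Wnt genes; the x axis is the distance in kb from the lower-coordinate end of wg, bar width is region width, and bar height is the deposited score in log2 units, which has a constant of its own in each list. Shaded bands are the 4 Wnt genes, and the lowest panel shows all annotated genes. Wide regions fill most of Wnt4 and wg and the sequence between them, while the Wnt10 band is empty in all 3 lists.

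At wg, a single wide region lay across the lower-coordinate end of the gene, which is where its transcription starts. In replicate 1 the region ran over chr2L:7298112-7314357 with a score of 1.14. In replicate 2 it ran over chr2L:7301590-7314437 with a score of 1.16, and in the joint list over chr2L:7297927-7314439 with a score of 1.08. The scores are log2 values with a constant of their own in each list, so they are comparable within a list, where a difference of 1 stands for a factor of 2.

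The wg region had the highest score of the stretch in each of the 3 lists. It stood in the upper part of the whole lists, with 79.7%, 81.8% and 82.7% of all scores below it in replicate 1, replicate 2 and the joint list. It began 9047 bp before the gene in replicate 1, 5569 bp before it in replicate 2 and 9232 bp before it in the joint list. The upper edges were closer together: the region stopped 1908 bp, 1828 bp and 1826 bp short of the upper end of wg. The first 5000 bp of the gene were covered completely in all 3 lists, and the last stretch of the gene was free of regions in all 3.

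Sequence before wg was also covered. Over the 15 kb next to its lower end, 95.5% of bases in replicate 1, 90.2% in replicate 2 and 97% in the joint list were inside a region. In replicate 2, where the joint list has 1 region over this end of wg, a break of 306 bp left a separate region at chr2L:7298525-7301283 with a score of 0.59. A further region lay below, at chr2L:7289511-7297429 in replicate 1 (score 0.68) and chr2L:7291538-7297359 in replicate 2 (score 0.85). It overlapped no annotated gene, and the gap that separated it from the next region measured 682 bp in replicate 1 and 1165 bp in replicate 2.

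At Wnt4, whose product has been tied to cell movement in the ovary and to the choice of muscle targets by motor nerves, most of the gene was covered by a broad but low region. It ran over chr2L:7259242-7274415 in replicate 1 (15174 bp, score 0.72), over chr2L:7259187-7271391 in replicate 2 (12205 bp, score 0.67) and over chr2L:7258467-7274908 in the joint list (16442 bp, score 0.65). By width, 96.2%, 94.1% and 95.6% of the regions of each list were narrower. By score, 42.4%, 32.3% and 50.3% were lower. The region lay wholly inside Wnt4 in all 3 lists.

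This pairing of great width with a low score was rare. Replicate 1 listed 289 other regions at least as wide, and 0 of them scored lower. Replicate 2 listed 435, of which again 0 scored lower, and the joint list 357, of which 3 did. The median scores of these wide regions were 1.33, 1.29 and 1.23. The wg region, of like width, was not at this extreme, since 48 of 250 other regions at least as wide scored lower (replicate 1), and likewise 97 of 384 (replicate 2) and 98 of 352 (joint list). These ranks were looked at after the values were seen, and regions of a list are not independent replicates.

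**Figure D2:**
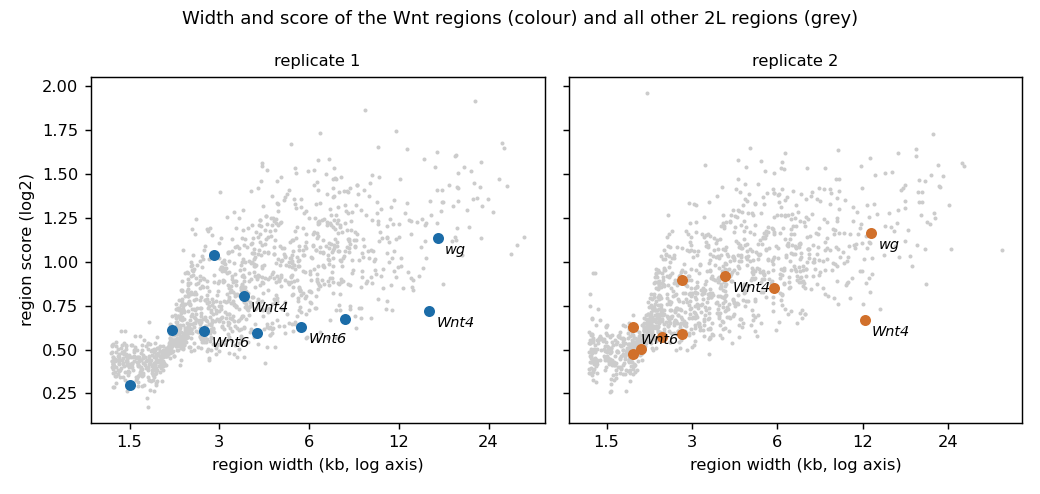
Width in kb (log axis) and score (log2) of every enriched region on 2L in replicate 1 (left) and replicate 2 (right); coloured points are the 10 regions of the Wnt stretch in each list, with the gene named where a region overlaps it, and grey points are the other regions of 2L. The broad Wnt4 region lies at the lower edge of the cloud for its width in both lists, at scores of 0.72 and 0.67, and the wg region at 1.14 and 1.16 lies inside it.

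A second, narrower region lay over the upper-coordinate end of Wnt4. It had a score of 0.81 in replicate 1 (chr2L:7275720-7279334), 0.92 in replicate 2 (chr2L:7275609-7279528) and 0.79 in the joint list (chr2L:7275056-7279549), above that of the broad region inside the gene in each list. It reached 2163 bp, 2357 bp and 2378 bp beyond the gene. The lower-coordinate end of Wnt4 was 3823 bp, 3768 bp and 3048 bp away from the nearest region. The small protein-coding gene CG31909, which lies within the Wnt4 span near that end, overlapped no region in any of the 3 lists.

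At Wnt6, which in flies takes part in the growth of the maxillary palps, regions were few and differed between the replicates. Its lower-coordinate end was inside a region at chr2L:7328980-7334630 in replicate 1 (score 0.63), chr2L:7331904-7333760 in replicate 2 (score 0.63) and chr2L:7329061-7334841 in the joint list (score 0.48). In replicate 2 the region reached only 47 bp into the gene, against 917 bp in replicate 1 and 1128 bp in the joint list. A region inside Wnt6, at chr2L:7339452-7342115 with a score of 0.61 in replicate 1, had no partner in replicate 2. The same was true of a weak region 459 bp beyond the upper end of Wnt6 in replicate 1, at chr2L:7353001-7354506, whose score of 0.30 was above only 0.842% of that list. The long non-coding RNA gene lncRNA:CR45304, between wg and Wnt6, was covered to 93.8% in replicate 1, 0% in replicate 2 and 79.7% in the joint list.

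Wnt10, the fly member of the WNT10 family, overlapped no region in replicate 1, replicate 2 or the joint list. The nearest region below it ended 3103 bp away in replicate 1, 3197 bp away in replicate 2 and 3098 bp away in the joint list. It lay at chr2L:7358204-7360276 in replicate 1 and at chr2L:7358206-7360182 in replicate 2, with scores of 0.61 and 0.50. Above the gene, the nearest was 8235 bp, 8170 bp and 8143 bp away. The stretch without a region around Wnt10 measured 25.5 kb, 25.5 kb and 25.4 kb, where the median gap between regions on 2L was 3350 bp, 3345 bp and 3046 bp. Longer gaps were not uncommon on the arm, at 143 of 1364, 147 of 1311 and 130 of 1484. An antisense RNA gene inside Wnt10, asRNA:CR44063, was likewise free of regions. The lists give no value for sequence outside regions, so enrichment too weak to be listed would not be seen.

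Ordered by the share of the gene span inside a region, wg came first with 79.5% ± 0.621, then Wnt4 with 69.9% ± 9.29, Wnt6 with 9.63% ± 13.3 and Wnt10 with 0% ± 0 (mean ± SD, n = 2). The single values were 79% and 79.9% for wg, 76.4% and 63.3% for Wnt4, and 19% and 0.25% for Wnt6, in replicates 1 and 2. wg was above Wnt4 by 2.62 percentage points in replicate 1 and 16.6 in replicate 2, a difference no larger than its spread (9.63 ± 9.91, SD), and in the joint list their order was the other way round, with 85.3% for Wnt4 and 79.9% for wg. Wnt6 was above Wnt10 in both, by a mean that was also smaller than its spread. Both replicates of wg and of Wnt4 lay above both replicates of Wnt6 and Wnt10.

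**Figure D3:**
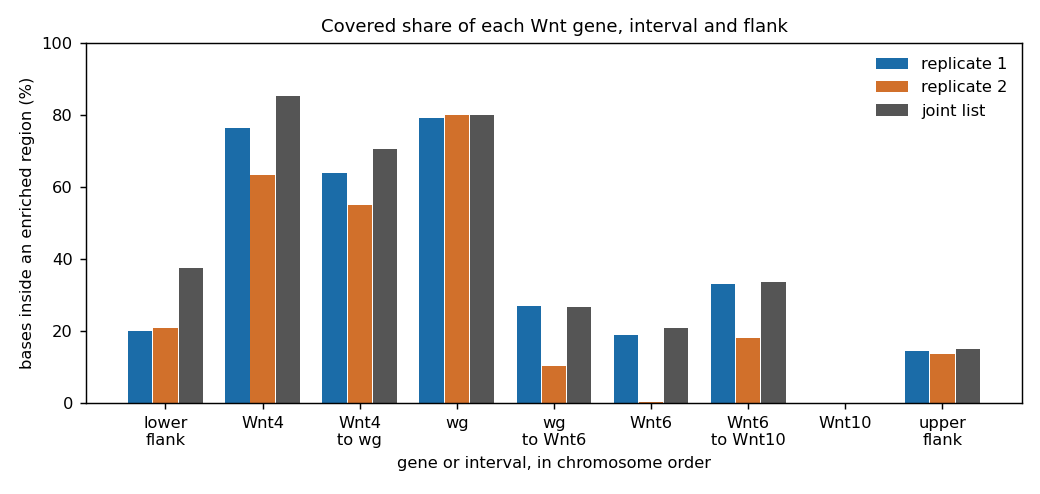
Percent of bases inside an enriched region for each Wnt gene, each interval between them and the 20 kb flanks, in chromosome order; bars are replicate 1, replicate 2 and the joint list. Wnt4, wg and the interval between them stand at 55% to 85.3%, and everything from the upper end of wg onwards at 33.6% or less.

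Set against all genes of the arm, the number of Wnt genes touched was near the background. An end of the gene lay inside a region for 3 of the 4 Wnt genes in each list (Wnt4, wg and Wnt6), while this held for 52% of the 3496 annotated genes of 2L in replicate 1, 49.2% in replicate 2 and 55.1% in the joint list. The same 3 genes overlapped a region anywhere along their span, against 54.5%, 52.1% and 57.4% of all 2L genes. Among the 367 genes at least as long as wg, the shortest of the 4, the shares with an end inside a region were 63.5%, 60.2% and 67.8%, and those with any overlap were 79.3%, 75.7% and 82.3%. Both ends were inside a region in 0 of the 4 Wnt genes, against 28.2%, 26.1% and 31.6% of all 2L genes and 10.1%, 6.81% and 14.2% of the long ones.

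The covered shares of the 4 genes were far apart on this scale too. Of all 3496 genes of 2L, which include many short ones covered from end to end, 1004 (replicate 1), 925 (replicate 2) and 1108 (joint list) had a higher share than wg. Among the 367 long genes, with median covered shares of 24.2% (replicate 1), 19.8% (replicate 2) and 29% (joint list), 34, 30 and 44 had a higher share than wg. For Wnt4 these numbers were 41, 62 and 32. Wnt10 shared its value of 0 with 76, 89 and 65 long genes in all, itself included. Neighbouring genes can share a region, so genes of the arm are not independent of each other.

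Over the whole stretch, 38.1% of bases in replicate 1, 29.8% in replicate 2 and 43% in the joint list were inside a region. The rest of 2L had 27.5%, 25.1% and 31.4%. The mean was 34% ± 5.84 in the stretch and 26.3% ± 1.67 in the rest of the arm (SD, n = 2). The stretch was above the rest in 2 of 2 libraries, by 10.6 and 4.68 percentage points (7.63 ± 4.17, SD). The ratio was 1.38 in replicate 1 and 1.19 in replicate 2. Its mean, 1.29, was 1.23 without the last 2 Mb of the arm. Coverage is uneven along the arm: from 5 to 10 Mb, which includes the stretch, it was 34.8%, 31.2% and 39.4%. Against this part of the arm, the stretch was lower in replicate 2 and higher in replicate 1 and the joint list. The arm was also laid out in 141 stretches of the same length, end to end from its first base. Of these, 42, 56 and 44 had a higher share than the Wnt stretch in replicate 1, replicate 2 and the joint list. The medians of all 141 were 27.1%, 24% and 31.5%. Those at chr2L:7132841-7294950 and chr2L:7294951-7457060 overlapped the Wnt stretch itself. The first of them, at 40.6%, 30.6% and 47.2%, was counted as higher in each list.

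**Figure D4:**
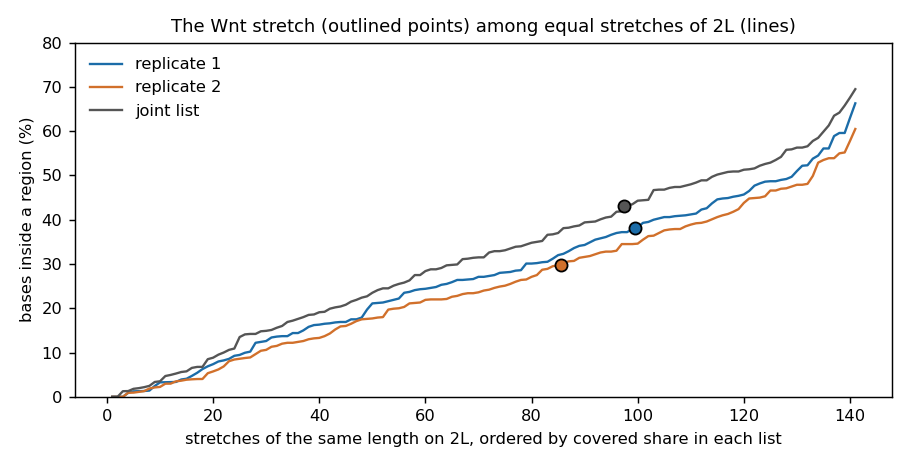
Percent of bases inside a region in 141 end-to-end stretches of 2L of the length of the Wnt stretch, ordered from low to high in replicate 1, replicate 2 and the joint list (lines); outlined points place the Wnt stretch at 38.1%, 29.8% and 43%. The Wnt stretch lies above the middle of the arm in each list and below its upper quartile (40.6%, 37.8% and 47.2%).

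Regions of the stretch had lower scores, on the median, than those elsewhere on 2L. The medians were 0.65 (replicate 1), 0.65 (replicate 2) and 0.51 (joint list) in the stretch, against 0.76, 0.78 and 0.61 on the rest of the arm. Their median width was 3809 bp, 2762 bp and 3744 bp, against 3231 bp, 3030 bp and 3227 bp. With 10 regions in each replicate list, these medians rest on few values.

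The replicates shared a smaller part of the marked sequence here than on the rest of the arm. In the stretch, 47203 of the 62880 bases marked in either replicate were marked in both (75.1%), against 83.4% on the rest of 2L. Of the 12 joint regions, 8 were found in both replicates, 2 in replicate 1 only, 0 in replicate 2 only and 2 in neither. The 2 found in neither were chr2L:7248838-7249838, within Ndae1, a gene for a sodium-driven anion exchanger, and chr2L:7281853-7283477, between Wnt4 and wg. Both regions found in replicate 1 only lay in or just beyond Wnt6. Of 12 edges in the 6 regions matched one to one between the replicates, 8 lay within 200 bp of each other, and the others differed by up to 3024 bp, at the upper edge of the broad Wnt4 region. Read numbers are not known here, and the part of unequal depth in these differences was not tested. The counts of joint regions and of edges have no background from the rest of the arm here, so they do not set the stretch apart.

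Loci of other developmental genes on the arm were delimited in the same way for comparison. They were shorter, at 71452 bp for dpp and 53511 bp for slp1 and slp2, against 162110 bp for the Wnt stretch. The 20 kb flanks therefore made up a larger part of them. The Wnt stretch, at 38.1% and 29.8% in replicates 1 and 2, was slightly below the stretch around dpp, which encodes a BMP ligand and was covered to 41.7% and 34.5%. Within the libraries the difference, Wnt minus dpp, was -3.61 and -4.67 percentage points (-4.14 ± 0.746, SD, n = 2), and it was -7.69 in the joint list. Both values of the Wnt stretch lay below both values of the stretch around slp1 and slp2, forkhead transcription factor genes that act on wg, which was covered to 87.2% and 75.9%, with a mean of 81.6% ± 7.96. The top score of the Wnt stretch, at wg, was 1.14 in replicate 1 and 1.16 in replicate 2, against 1.14 and 1.17 in the dpp stretch and 1.43 and 1.55 in the slp1 and slp2 stretch.

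Other genes of 2L were taken from 3 lists. They held Wnt receptor genes, genes of planar polarity and the Jun kinase pathway, and transcription factor genes. An end of the gene lay inside a region in 15 of 15 of these genes in each list of regions. The background given above was 52%, 49.2% and 55.1%. The genes were chosen with earlier results of these data known, so this contrast is no evidence of a trait they share. They are also not all separate. In each list of regions, slp1 and slp2 lay in 1 shared region, and the neighbours Ror and bsk, from different gene lists, overlapped a shared region. Of the Wnt receptor genes, drl (derailed, a Ryk-type receptor) was covered to 71.7% ± 0.917, dnt (doughnut, of the same family) to 41.9% ± 2.77 and Ror (a receptor tyrosine kinase) to 60% ± 17.7 (SD, n = 2). Each of these 3 means lay below that of wg and above that of Wnt6. Wnt10 overlapped no region in any list, whereas each of these receptor genes overlapped at least 1 in all 3.

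The genes of planar polarity and the Jun kinase pathway ranged widely. The long cadherin genes ft (fat) and ds (dachsous) had shares of 23% ± 3.35 and 13.1% ± 2.99. The short genes fy (fuzzy, a planar polarity effector) and bsk (basket, the fly Jun kinase) had 100% ± 0 and 93.7% ± 5.19. Length differs greatly within this list, from 1805 bp for fy to 74971 bp for ds, and short genes are more easily covered from end to end.

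Transcription factor genes that act with or on wg in the segment were covered almost throughout, with a median of 100% in replicate 1, 98% in replicate 2 and 100% in the joint list. slp1, slp2 and the pair-rule gene prd (paired) were at 100% in all 3 lists, and odd (odd-skipped) was at 99.9% ± 0.167. mid (midline), a T-box gene, had 97.6% ± 3.46, and its neighbouring relative H15 had 26.7% ± 19.3, the lowest of the list. SoxN (SoxNeuro), an HMG-box gene, had 94.8% ± 2.05, and tsh (teashirt), a zinc finger gene whose product works with Armadillo in the trunk, had 75.6% ± 0.0588. Over all 2L genes the median shares were 17% (replicate 1), 8.68% (replicate 2) and 27.6% (joint list). As the listed genes were chosen with earlier results of these data known, this contrast is no evidence of a shared trait either. Length differs here too: all of the listed transcription factor genes but H15, at 12314 bp, are shorter than wg. In replicate 1, 786 of the 3496 genes of 2L were covered to 100%, but only 3 of the 367 long ones. The part of gene length in the high shares was not tested.

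**Figure D5:**
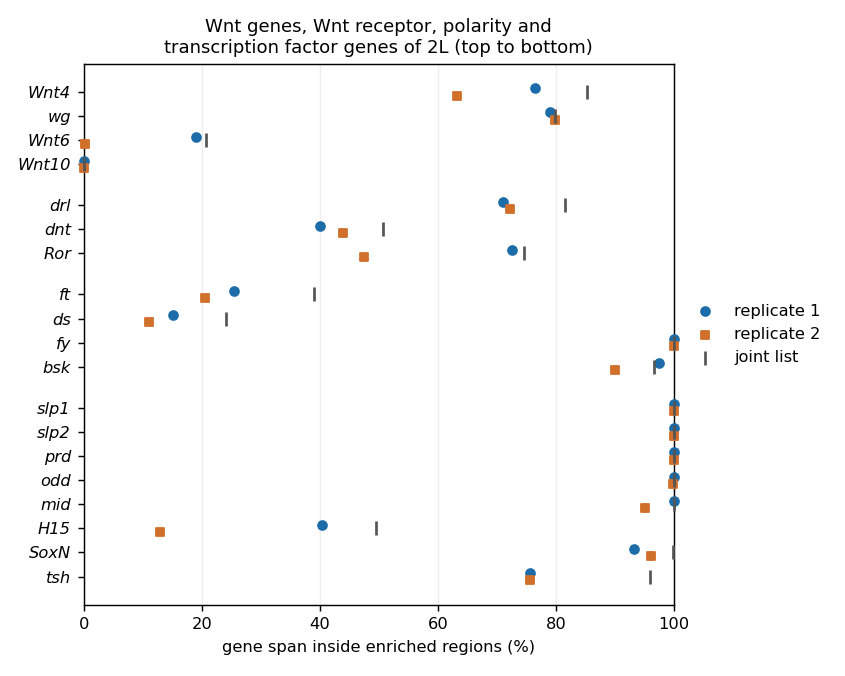
Percent of the gene span inside an enriched region for the 4 Wnt genes and, below them, the Wnt receptor, planar polarity and Jun kinase, and transcription factor genes of 2L; circles are replicate 1, squares replicate 2 and ticks the joint list. wg and Wnt4 lie at 63.3% or more, Wnt6 and Wnt10 at 20.8% or less, and most transcription factor genes at or near 100%.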

How the data were processed

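Lists of regions of significant enrichment were analysed, 1 for each of the 2 ChIP libraries and 1 joint list. The authors deposited each region with first base, last base and a score, on FlyBase release 5 per the file headers. Bowtie 0.12.7 was used, per the submitters' processing notes; the sources used here do not give the program that called the regions, its settings or the number of reads. The authors do not state the scale of the deposited score, and it was settled as log2 from the values. Within a list, base 2 gave ratios of whole numbers (denominator up to 20000, relative tolerance 2e-13) for 7601 of 7601, 7401 of 7401 and 8215 of 8219 scores, and other bases for at most 7. Both replicate files carry the same experiment number, so the link from each list to its library was taken from the repository. The 1 record named as depleted was left out.

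Covered bases, overlaps of at least 1 bp and distances were computed in Python 3.11.15 and tested on simulated lists. The 4 Wnt genes were named, then genes that lie between or within them, then genes of 3 lists. Members and lists were chosen with earlier results of these data known. A test of the starts of genes had been planned; the gene table has no strand, so either end was counted. Sequences of promoters and proteins were not used here. Differences along the chromosome were taken within each library; no exact sign-flip test across 2 libraries can give p below 0.5.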

Additional observations from a re-analysis of the deposited data

How the results depend on the processing

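No paired analysis was possible between the ChIP and input groups because input values were not analysed here; comparisons along the chromosome are given within each library. Alternatives gave 38 values, of which 30 stayed within the limit set for their result and 8 went beyond it. That limit was the SD between replicates for covered shares and for the ratio to the rest of 2L. For counts it was a fixed fold change, and for shared bases the interval given below. A turn of direction was looked for in the ratio only, where 0 turned. With 1 of 2 replicates left out, the share of the stretch and the ratio could not leave the SD, so those values are no check. The covered share of the stretch over that of the rest of 2L, 1.29, was 1.49 with no flank and 1.45 with a flank of 50 kb, beyond the spread between replicates, and 1.19 to 1.38 with either replicate left out. The part of the marked bases that both replicates shared was 75.1%. It was 74.1% with no flank, 79.9% with a flank of 50 kb and 64.1% without the lowest quartile of scores. Its limit was the 95% exact Clopper-Pearson interval over bases, which takes each base as independent. Bases come in a few regions and are not independent, so this interval is too narrow, and a value beyond it means little by itself. The covered share of the stretch ran from 29.8% to 38.1% with either replicate left out. Without replicate 1, the share of the Wnt6 span fell to 0.25%, against 20.8% in the joint list, and that of Wnt4 to 63.3%, against 85.3%. The share of the wg span also went beyond its limit, at 79% without replicate 2 against 79.9% in the joint list. Its limit was narrow, as the SD between the 2 replicates was 0.621. An end inside a region was counted for 3 of 4 Wnt genes under each alternative tried. Regions below the authors' threshold cannot be seen in these lists.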

Other observations

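Beyond the Wnt genes, the stretch held 9 annotated genes, of which 4 overlapped a joint region. The share over all 3496 annotated genes of 2L was 57.4%, so this count does not set the neighbours apart. The neighbouring genes named here were chosen after their values were seen. A region with a high score for this stretch lay above Wnt10, over the upper end of CG5149, at chr2L:7385763-7388645 in replicate 1 (score 1.04) and chr2L:7385698-7388461 in replicate 2 (score 0.90). In replicate 1 it reached the neighbouring gene gudu, and in replicate 2 it stopped 47 bp short of it. It was narrow for its score: of the regions at most as wide, 89 of 3235 scored higher in replicate 1 and 286 of 3142 in replicate 2. The gene ninaC, which encodes a myosin of photoreceptor cells and lies directly above Wnt10, overlapped no region in any of the 3 lists. CG13786, below Wnt4, and CG5160, at the upper edge of the stretch, were also without a region in all 3. Ndae1, at the lower edge, was covered to 17% in replicate 1, 18.2% in replicate 2 and 29% in the joint list.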
